A study of Sus scrofa with 2 samples.

Results

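The 1 kb stretches of the pig autosomes that were almost fully methylated in the back muscle of both a low-altitude and a high-altitude Tibetan pig are described here. A window was taken when at least 92% of its reads were methylated in each pig. This choice gave 5023 of 423427 tested autosomal windows (1.19%), out of 462691 tested windows in all. A window was tested when it held 5 or more CpGs with 5 or more reads in each pig, counting cytosines present in both lists with the strands of a CpG summed. The readout itself therefore chose the windows, and their levels are given as a description without a test.

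Bisulfite sequencing was run on longissimus dorsi, the long muscle of the back, of 1 female Tibetan pig from each place. The low-altitude pig (average altitude 500 m) was kept under experimental conditions with normal daily feed on the Chengdu plain, and descended from Tibetan pigs held in the lowland for generations. The high-altitude pig (average altitude 4000 m) was a free-ranging animal of the Tibetan highland. Altitude, feeding, housing, descent, individual and library cannot be told apart in this design, and no result below has a replicate error between pigs. Whole muscle was used, so fibres, connective tissue, vessels and blood cells contribute together. The low-altitude list held 10104425 nuclear cytosines with 95363149 reads, and the high-altitude list 10441737 with 99955761 reads, at a median depth of 8 reads per cytosine in both.

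In vertebrate genomes methyl groups sit mainly on the cytosine of CpG dinucleotides. After each round of DNA replication the enzyme DNMT1 copies the mark to the new strand, DNMT3A and DNMT3B add it at unmethylated sites, and TET enzymes oxidise it. Most CpGs of somatic tissue are methylated, with transcribed gene bodies and transposable elements usually high and active promoters and CpG islands low. A level close to 100% is reached when nearly every molecule read, from both parental copies and all cell types of the tissue, carries the mark. The lists hold cytosines with methylated calls, so a CpG that was unmethylated in all reads is missing from them, and a window's level refers to its listed CpGs. No genome sequence or gene position of the files' build was used, so windows are given by chromosome and position alone.

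The chosen windows lay in the extreme corner of the distribution. Their mean level was 94.4% ± 1.90 in the low-altitude pig and 94.4% ± 1.89 in the high-altitude pig (SD over 5023 windows), against means of 74.4% and 75.4% over all tested autosomal windows. Of them, 587 had 95% or more in both pigs. No unmethylated read was seen in 134 windows of the low-altitude pig and in 136 of the high-altitude pig, and 15 windows had none in either. The windows held 32233 CpGs, with a median of 6 and at most 21 per window, and a median of 61 reads in the low-altitude and 62 in the high-altitude pig. Of the windows, 2467 were higher and 2472 lower in the low-altitude pig and 84 were equal. The difference, low altitude minus high altitude, could not exceed 8 points because both levels lie between 92% and 100%, and nothing is read from it.

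**Figure D1:**
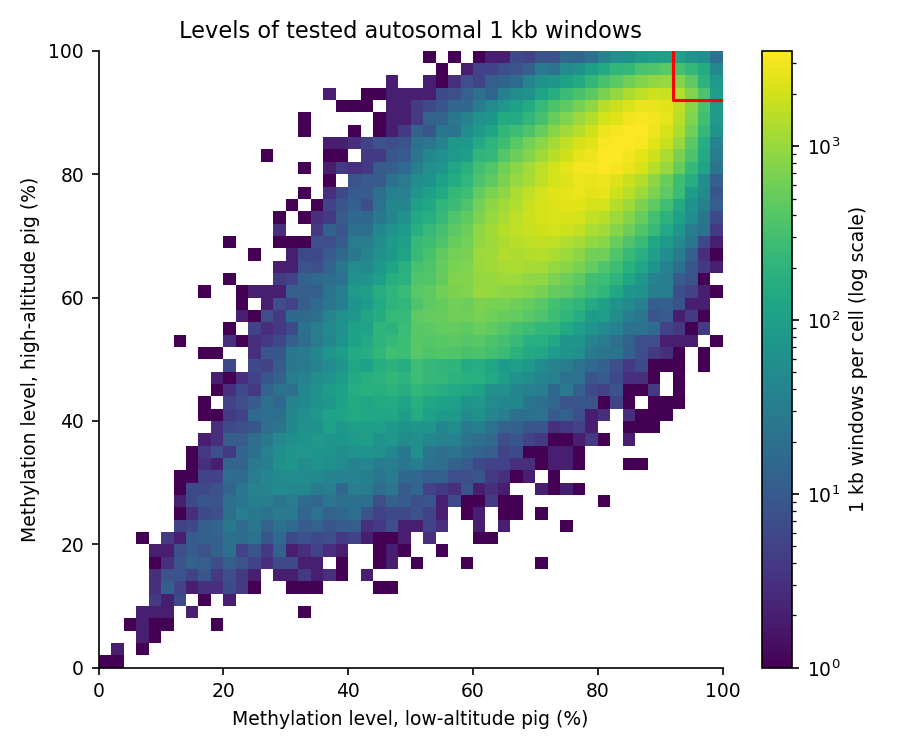
Methylation levels of all 423427 tested autosomal 1 kb windows in the low-altitude pig (horizontal axis, %) and the high-altitude pig (vertical axis, %), in cells of 2 points coloured by the number of windows on a log scale. The red corner marks the 5023 windows at 92% or more in both pigs, which lie beyond the densest part of the cloud.

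The depth of a window limits how sharply this corner can be drawn. Just inside the border, the window on chromosome 1 from 7113001 to 7114000 had 92 of 100 methylated reads in the low-altitude pig and 107 of 115 in the high-altitude pig. Another on chromosome 1, from 22008001 to 22009000, had 61 of 63 and 69 of 75. Just outside, the window on chromosome 7 from 17354001 to 17355000 had 167 of 179 (93.3%) in the low-altitude and 195 of 212 (91.98%) in the high-altitude pig. The window on chromosome 13 from 91491001 to 91492000 had 166 of 180 and 172 of 187. In the high-altitude pig the 95% Wilson interval of the level was 83.6 to 96.3% for the second window inside and 87.5 to 94.9% for the first outside, so windows on both sides of the border differed by less than their counting error.

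Among the 15 windows without any unmethylated read, 4 had the most reads. The deepest, on chromosome 1 from 300273001 to 300274000, was methylated in 46 of 46 reads in the low-altitude pig and in 43 of 43 in the high-altitude pig (Wilson intervals from 92.3% and 91.8% upward). Its 5 listed CpGs lay within 29 bases, at positions 300273136, 300273145, 300273148, 300273153 and 300273165, and had 8 to 12 reads each in the low-altitude and 6 to 13 in the high-altitude pig. CpGs so close are read on the same molecules, so the reads of such a window are fewer independent molecules than their number. Cytosines in the same window that a single list holds were also high, at 96.2% over 26 reads in the low-altitude pig and 94.1% over 17 reads in the high-altitude pig.

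The window on chromosome 4 from 80517001 to 80518000 had 42 of 42 methylated reads in each pig over 5 CpGs that spanned 558 bases. There the 2 cytosines found only in the low-altitude list had 60% over 10 reads, so the window was not complete outside the CpGs that chose it. In the window on chromosome 4 from 16799001 to 16800000, all 34 reads of the low-altitude and all 37 of the high-altitude pig were methylated, and the cytosines of a single list had 76.2% (21 reads) and 85.7% (28 reads). In that on chromosome 14 from 108549001 to 108550000, methylated reads were 38 of 38 and 33 of 33, and the 6 cytosines found only in the high-altitude list had 88.6% (35 reads). In 3 of these 4 windows, levels below 90% thus stood at cytosines outside the choice.

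The windows richest in listed CpGs rested on more reads. On chromosome 1, from 62732001 to 62733000, 21 CpGs gave 213 of 231 methylated reads (92.2%, interval 88.0 to 95.01) in the low-altitude pig and 182 of 194 (93.8%, 89.5 to 96.4) in the high-altitude pig. The unmethylated reads, 18 and 12, were spread over 9 CpGs in the low-altitude and 8 in the high-altitude pig, of which 5 were the same CpGs. On chromosome 3, from 134709001 to 134710000, 21 CpGs within 396 bases had 92.9% (211 reads) in the low-altitude and 93.5% (138 reads) in the high-altitude pig. The 21 CpGs on chromosome 8 between 112655001 and 112656000 had 93.4% (137 reads) and 92.6% (190 reads). The next window, on chromosome 3 from 40627001 to 40628000, had 20 CpGs within 207 bases, at 93.8% (112 reads) and 94.3% (122 reads). Single-list cytosines of these windows, in the order given, had 83.3% (30 reads), 85.4% (48), 86.6% (67) and 91.9% (62) in the low-altitude pig. In the high-altitude pig they had 95.2% (21 reads), 88.6% (35), 85.7% (14) and 94.4% (18). In the window on chromosome 3 from 40627001 to 40628000, the distances 18, 3 and 3 bases between successive CpGs came 3 times. The starts of these runs were 36 and 72 bases apart, a regular arrangement of its CpGs.

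Within the chosen windows the few unmethylated reads were spread over many CpGs. In the low-altitude pig 56.4% and in the high-altitude pig 56.0% of the CpGs had no unmethylated read, and 35.0% had none in either pig, against 16.9%, 18.3% and 6.16% of the CpGs of other tested autosomal windows. CpGs below 70% were rare, at 434 (1.35%) in the low-altitude and 475 (1.47%) in the high-altitude pig, and carried 5.42% and 5.64% of the unmethylated reads. Among the 10477 CpGs with 10 or more reads in each pig, the 18 that were below 70% in the low-altitude pig had 88.0% in the high-altitude pig (interval 83.3 to 91.5), with 1 of them below 70% there too. The 3990 CpGs without an unmethylated read in the low-altitude pig had 94.5% in the high-altitude pig (94.4 to 94.7). In the opposite direction, the 12 CpGs below 70% in the high-altitude pig had 88.2% in the low-altitude pig (82.2 to 92.4), and the 3845 complete ones 94.7% (94.5 to 94.9). Weak CpGs of one pig were thus slightly lower in the other, but most were highly methylated there. The sum of a window is bounded by the choice, and these levels are a description.

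No single CpG of the chosen windows was called different between the libraries. All 2588389 CpGs with 10 or more reads in each pig were compared by the two-sided Fisher's exact test with Benjamini-Hochberg adjustment, and a CpG was called where the libraries were at least 25 points apart with adjusted p under 0.05. In the series 8349 CpGs (0.323%) were called, 0.176% as lower and 0.146% as higher in the low-altitude pig. In the chosen windows 0 of 10477 were called, and 26 (0.248%) had an unadjusted p under 0.05, against 138403 (5.35%) of all tested CpGs. The choice of windows used the same reads, so nothing is read from this count. The test compares 2 libraries and not 2 altitudes. The largest positive difference was at positions 66185454 to 66185455 of chromosome 10, with 15 of 15 methylated reads in the low-altitude and 7 of 11 in the high-altitude pig (Fisher's exact test, adjusted p = 0.694). The largest negative difference was at positions 28370302 to 28370303 of chromosome 2, with 10 of 16 and 10 of 10 reads (Fisher's exact test, adjusted p = 0.954). The next differences, low altitude minus high altitude, were 33.3, 30 and 30 points and −36.4, −33.8 and −33.3 points, none of them called.

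Strands of a CpG were alike in these windows. Over reads the plus strand had 94.2% and the minus strand 94.2% in the low-altitude pig, and 94.1% and 94.2% in the high-altitude pig. Of 4417 CpGs listed on both strands in both pigs, 3 in the low-altitude and 6 in the high-altitude pig had strands 50 points or more apart, and none in both pigs in the same direction. In other tested autosomal windows 387 of 485800 such CpGs were that far apart in both pigs in the same direction. Near-full methylation leaves little room for unequal strands, so this too describes the chosen windows and supports nothing further.

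Cytosines found in a single list were not counted in the choice of windows. They lie in the same windows, partly on the same molecules as the CpGs that were counted, so they are not independent of the choice. At these cytosines the chosen windows had 85.03% in the low-altitude pig (95% Wilson interval 84.8 to 85.3, 12871 cytosines) and 86.1% in the high-altitude pig (85.8 to 86.3, 14355 cytosines). Other tested autosomal windows had 72.8% and 73.7% at their own single-list cytosines, with intervals narrower than 0.1 points. The chosen windows were higher on 18 of 18 autosomes in each pig, with 84.1 to 86.5% in the low-altitude and 84.5 to 87.5% in the high-altitude pig, against 70.5 to 74.8% and 72.0 to 74.99% in other windows. The ranges do not overlap, and the level was below the 94.2% of the counted CpGs in each pig. Of single-list cytosines in the chosen windows, 45.1% in the low-altitude and 47.3% in the high-altitude pig had no unmethylated read, and 4.66% and 4.32% were below 50%. In other windows 27.2% and 28.5% had none, and 15.9% and 15.4% were below 50%.

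Windows at 85 to 92% in both pigs, the class most like the chosen ones, had 82.6% (82.5 to 82.7) in the low-altitude and 83.2% (83.1 to 83.3) in the high-altitude pig at single-list cytosines. The chosen windows thus exceeded this class by less than the gap at the shared cytosines, where the classes had 94.2% and 88.2% in the low-altitude pig and 94.2% and 88.4% in the high-altitude pig. The single-list cytosines are of 2 kinds. Some are the opposite strand of a CpG that the choice used, and so come from reads of the other strand, with 88.2% (2950 cytosines) in the low-altitude and 89.5% (4244) in the high-altitude pig. The others belong to CpGs outside the choice, with 84.1% (9921) and 84.6% (10111). In other tested autosomal windows the same kinds had 73.8% and 72.3% in the low-altitude pig, and 75.3% and 72.7% in the high-altitude pig. A cytosine is missing from a list when it had fewer than 5 reads, or too few methylated calls to pass the corrected p-value, and these cases cannot be separated.

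**Figure D2:**
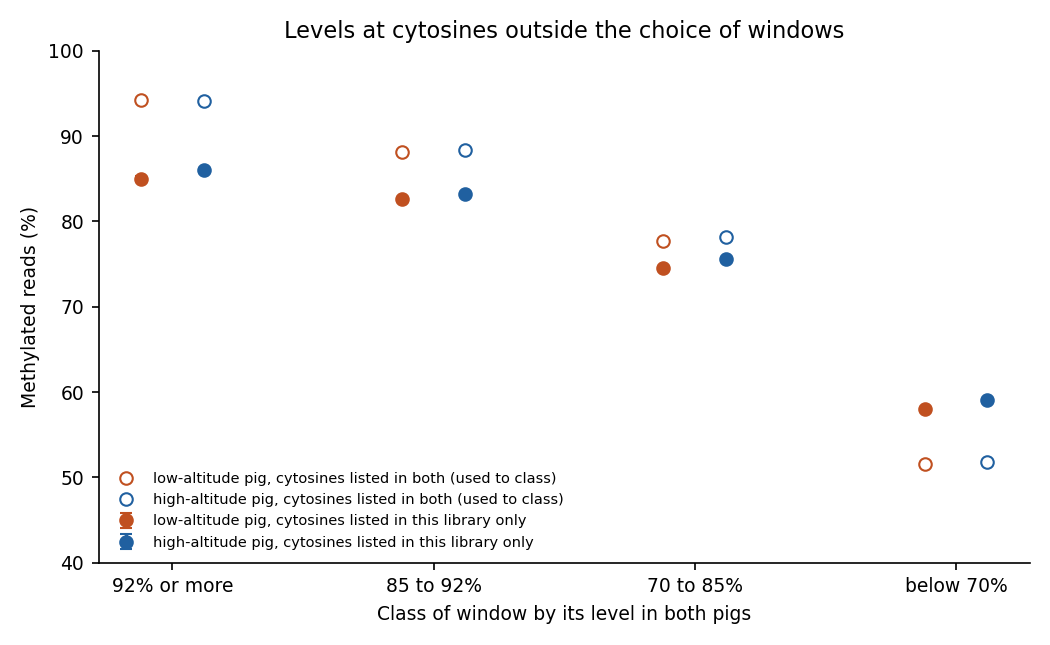
Share of methylated reads (vertical axis, %) by class of window (horizontal axis), in the low-altitude pig (orange, left) and the high-altitude pig (blue, right). Filled points show cytosines found in that pig's list only, with 95% Wilson intervals that are smaller than most points, and open points the cytosines found in both lists, which set the classes. The filled points run from 85.03% and 86.1% in the windows at 92% or more to 58.1% and 59.1% in those below 70%.

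The higher level at single-list cytosines held in each class of depth and CpG number. In windows with 100 or more reads in the library with fewer reads it was 85.4% (84.6 to 86.2) in the low-altitude and 87.1% (86.4 to 87.8) in the high-altitude pig. With 25 to 49 reads it was 84.95% (84.6 to 85.3) and 85.5% (85.1 to 85.8), so the deeper windows were higher beyond the intervals in the high-altitude pig and within them in the low-altitude pig. Windows with 10 or more CpGs had 85.9% and 87.8%, and those with 5 to 9 CpGs 84.9% and 85.9%. The 587 windows at 95% or more in both pigs had 85.4% (84.7 to 86.0) and 87.5% (86.9 to 88.1), so their intervals overlapped that of all chosen windows in the low-altitude pig and lay above it in the high-altitude pig.

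The pigs can also be read against each other, by choosing windows in a single library and reading the other. Of the 22000 windows at 92% or more in the high-altitude pig, 22.8% were also at 92% or more in the low-altitude pig, 47.7% were at 85 to 92%, 27.8% at 70 to 85% and 1.72% below 70%. Over all tested autosomal windows these shares of the low-altitude pig were 4.29%, 17.9%, 46.3% and 31.5%. Of the 18155 windows at 92% or more in the low-altitude pig, 27.7%, 47.0%, 24.0% and 1.31% fell in these classes in the high-altitude pig, against 5.20%, 19.96%, 46.2% and 28.7% of all windows. Most windows chosen in one pig thus kept a level over 85% in the other. A loss below 50% was rare, with 10 windows (0.0455%) chosen in the high-altitude pig and 5 (0.0275%) chosen in the low-altitude pig, whereas 4.74% and 4.38% of all windows were below 50% in the low- and the high-altitude pig.

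**Figure D3:**
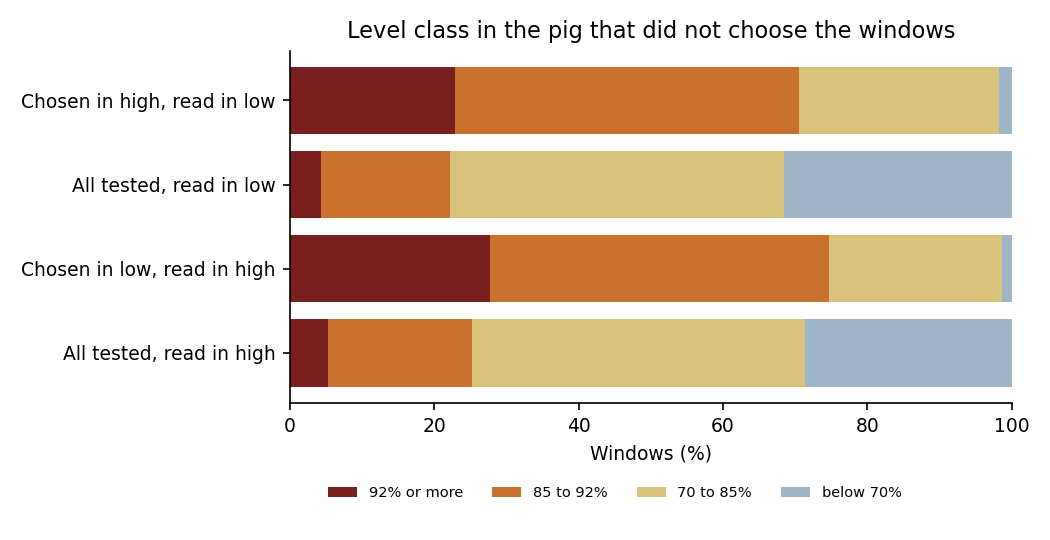
Shares of 1 kb windows (horizontal axis, %) in 4 classes of level in the pig that did not choose them. The upper bar of each pair shows windows at 92% or more in the pig named as choosing, and the lower bar all 423427 tested autosomal windows. Windows below 70% make up 1.72% and 1.31% of the chosen windows and 31.5% and 28.7% of all windows.

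The level in the pig that did not choose the windows was higher with more depth. For windows chosen in the high-altitude pig the mean was 87.3% ± 6.44 in the low-altitude pig (SD over 22000 windows), and it was 88.6% ± 3.97 for the 690 of them with 150 or more reads in the high-altitude pig and 86.5% ± 7.77 for the 6110 with 25 to 49 reads. Chosen in the low-altitude pig, windows had 88.0% ± 6.19 in the high-altitude pig over 18155 windows, 89.3% ± 4.04 at 150 or more reads (493 windows) and 87.3% ± 7.21 at 25 to 49 reads (5582 windows). In the pig that chose them the windows had means of 94.2% (chosen in the high-altitude pig) and 94.1% (chosen in the low-altitude pig). Depth moved with this gap, and its part was not tested.

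Each library was also split, by strand and by CpG. Windows chosen on the plus strand alone in both pigs numbered 2947 (1.54% of those tested). The 1985 of them with a minus-strand cytosine in both lists had, on that strand, 86.8% of reads methylated in the low-altitude and 87.6% in the high-altitude pig. Of 2946 windows chosen on the minus strand, 1960 could be read on the plus strand and had 87.1% and 87.7%. With CpGs numbered along a window, the 1229 windows chosen on CpGs of odd order had 88.2% (87.9 to 88.4) in the low-altitude and 88.3% (88.1 to 88.6) in the high-altitude pig at those of even order. The 889 chosen on even order had 87.7% and 87.8% at those of odd order. Alternate CpGs often share molecules, whereas the strands are read separately. As means over windows, the levels at what the choice did not count were 86.8 to 87.4% between strands and 87.6 to 88.2% between CpG orders. These were above the means of 74.8 to 77.3% of all windows tested in the same way.

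The surroundings of the chosen windows were highly methylated too. Tested windows 1 kb away had mean levels of 83.3% in the low-altitude and 83.8% in the high-altitude pig over 3377 pairs of windows, against 75.1% and 76.0% beside any tested autosomal window. Neighbours that were themselves chosen, and so high by the choice, are included at this and every other distance. Without them, the 3204 direct neighbours, each counted once, had 82.7% in the low-altitude and 83.3% in the high-altitude pig. At 10 kb the levels were 81.5% and 82.3%, at 20 kb 80.3% and 81.2%, at 100 kb 78.6% and 79.4%, and at 1000 kb 75.01% and 75.9%, while around any tested window they stayed between 74.7 and 76.1% at all these distances. Windows at 85 to 92% in both pigs had neighbours of 81.3% and 81.9% at 1 kb, and at 20 kb 79.3% and 80.05%. The higher level around the chosen windows thus reached beyond 20 kb, which is a description, since windows are not replicates. Neighbours below 50% in both pigs made up 0.326% at 1 kb from a chosen window and 2.58% at 1 kb from any tested window. Around windows at 85 to 92% the share at 1 kb was 0.505%. At 2 kb it was 0.854% around chosen windows and 0.895% around those at 85 to 92%, so few low neighbours were not particular to the chosen windows.

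**Figure D4:**
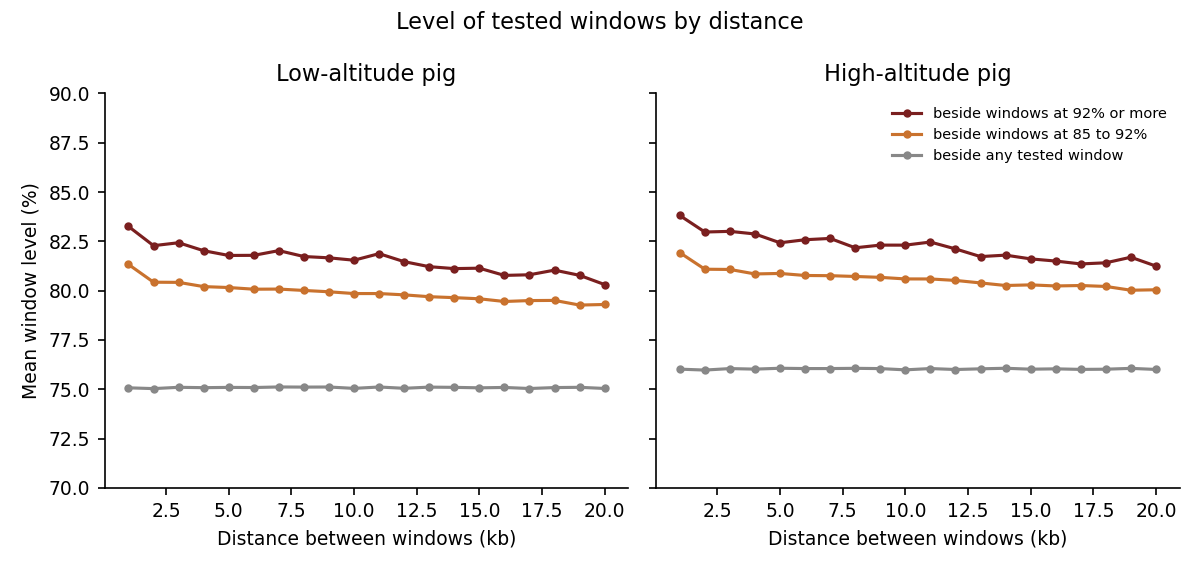
Mean level of tested 1 kb windows (vertical axis, %) at 1 to 20 kb (horizontal axis) from a window, in the low-altitude pig (left) and the high-altitude pig (right). Neighbours of windows at 92% or more (dark red) run from 83.3% and 83.8% at 1 kb to 80.3% and 81.2% at 20 kb, above neighbours of windows at 85 to 92% (orange) and of any tested window (grey). Neighbours that were themselves chosen are included.

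Few neighbours of a chosen window were chosen as well. Of the 3377 pairs of a chosen window and a tested window 1 kb away, the neighbour was also chosen in 140 (4.15%, interval 3.52 to 4.87). The share was 2.79% beside windows at 85 to 92% and 1.23% beside any tested window. Pairs of 2 chosen windows are counted from both sides, and with each neighbour counted once 138 of 3342 were chosen. Around chosen windows the share of pairs was 3.85% at 10 kb and 1.88% at 100 kb. The share at 1 kb moved with the limits, to 11.3% where 90% was asked in both pigs, 0% at 95% and 1.79% with 10 or more reads per CpG. Runs of 2 consecutive chosen windows numbered 66 and runs of 3 numbered 2, and 4885 windows stood alone. A direct neighbour could be tested for 2733 of the chosen windows. The run of 3 with more reads lay on chromosome 8 from 146986001 to 146989000, with 206 of 220 methylated reads (93.6%) in the low-altitude and 243 of 255 (95.3%) in the high-altitude pig over 23 CpGs, and with 80.5% (77 reads) and 86.4% (59 reads) at single-list cytosines. Its 3 windows had 92.6%, 95% and 93.2% in the low-altitude pig and 94.0%, 93.5% and 100% in the high-altitude pig. The other run of 3, on chromosome 4 from 98041001 to 98044000, had 95.1% (204 reads) and 92.8% (195 reads) over 18 CpGs. Of the runs of 2, that on chromosome 2 from 119235001 to 119237000 had the most reads, with 95.3% (344 reads) and 94.2% (394 reads). Another on chromosome 2, from 17122001 to 17124000, had 95.2% (331 reads) and 94.3% (299 reads). In each of these 4 runs the intervals of the pigs overlap. The choice required a near-full level in both pigs for each window of a run. This bounds the difference between the pigs, so nothing is read from the overlap.

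A few chosen windows adjoined lowly methylated DNA. Of 2733 chosen windows with a tested direct neighbour, 21 had a neighbour below 50% on average over both pigs. The window on chromosome 4 from 119421001 to 119422000 had 94.9% (59 reads) in the low-altitude and 92.4% (79 reads) in the high-altitude pig, and the next kilobase had 28% (75 reads) and 32.6% (86 reads). All 7 CpGs of that neighbour carried unmethylated reads in both pigs. Also on chromosome 4, the window from 137037001 to 137038000 had 94.5% (55 reads) and 92.7% (41 reads), and the next one 33.3% (48 reads) and 32.3% (62 reads) over 5 CpGs. The window on chromosome 14 from 83671001 to 83672000 had 93.9% (49 reads) and 93.3% (30 reads), and the kilobase before it 35.1% (94 reads) and 37.1% (105 reads). These 3 steps were present in both pigs with intervals that do not overlap between the neighbours. The chosen windows are high in both pigs by the choice, and these were picked for a low neighbour by the mean of both pigs. Nothing is therefore read from the steps being found in both. At single-list cytosines the first of these chosen windows had 80% (5 reads) in the low-altitude and 66.7% (60 reads) in the high-altitude pig. The second had 53.3% (15 reads) and 88.9% (27 reads), and the third 100% and 80% over 5 reads each. Their high level thus did not extend to each cytosine.

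The chosen window with the lowest neighbour by the mean of both pigs had another make-up. This window, on chromosome 5 from 108298001 to 108299000, had 93.9% (99 reads) in the low-altitude and 95.9% (73 reads) in the high-altitude pig, and the kilobase before it 29.6% (152 reads) and 27.4% (113 reads). A single CpG at position 108297397, with 23 of 123 and 6 of 81 methylated reads, held 100 of the 107 unmethylated reads of that neighbour in the low-altitude pig and 75 of the 82 in the high-altitude pig. The other 4 CpGs of the neighbour had 5 to 9 reads in the low-altitude and 8 in the high-altitude pig and were mostly methylated. Among the CpGs counted in both pigs, this step thus rests on 1 unusually deep CpG. The 4 cytosines found there in the low-altitude list alone were deep too, with 254 reads at 5.91%, so cytosines outside that count were low as well. The 6 found in the high-altitude list alone had 57.8% over 45 reads.

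Beside the chosen windows, differences between the libraries were about as frequent as elsewhere. Summed reads of all 462691 tested windows were compared by the two-sided Fisher's exact test with Benjamini-Hochberg adjustment, and a window was called where the libraries were at least 20 points apart with adjusted p under 0.05. In the series 2286 windows (0.494%) were called, 0.306% as lower and 0.188% as higher in the low-altitude pig. Of the 3204 tested direct neighbours that were not chosen themselves, 12 (0.375%) were called, of which 9 were lower in the low-altitude pig. That share lies near the background and is no result about these neighbours. The largest fall was in the window on chromosome 3 from 4115001 to 4116000, with 47.3% (74 reads) in the low-altitude and 94.1% (51 reads) in the high-altitude pig (Fisher's exact test, adjusted p = 3.68e-05), and the largest rise on chromosome 1 from 11635001 to 11636000, at 86.3% (51 reads) and 51.8% (56 reads, Fisher's exact test, adjusted p = 0.0333). This pair was picked with its values known.

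The level of the wider region separated where near-full methylation was found. For each 100 kb bin with at least 50 CpGs outside tested windows, the level of those CpGs, which the choice did not use, was summed over both pigs. The chosen windows lay in bins of 78.7% ± 4.95 in the low-altitude and 79.5% ± 4.79 in the high-altitude pig (SD over 4737 windows), against 72.2% ± 7.88 and 73.3% ± 7.78 for 394787 other windows. In bins at 85% or more, 413 of 6777 tested windows (6.09%, interval 5.55 to 6.69) were near-fully methylated. The share was 3.18% in bins at 80 to 85%, 1.54% at 75 to 80%, 0.621% at 70 to 75%, 0.228% at 65 to 70% and 0.0780% at 60 to 65%. It was 0.0533% at 50 to 60% (9 of 16875 windows) and 0.0470% below 50% (2 of 4252 windows). Each step between neighbouring classes from 60% upward exceeded the counting error of the shares.

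**Figure D5:**
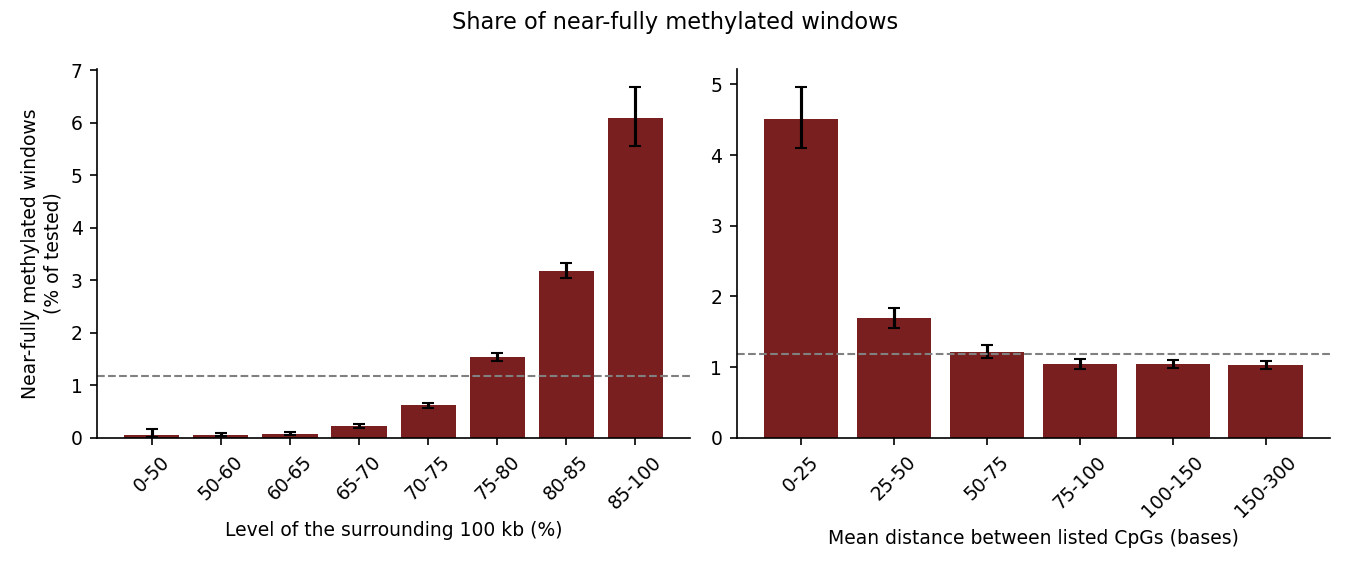
Near-fully methylated windows as a percentage of tested autosomal windows (vertical axes) by the level of CpGs outside tested windows in the surrounding 100 kb (left) and by the mean distance between the listed CpGs of a window (right), with 95% Wilson intervals. The dashed line is the share over all tested autosomal windows, 1.19%. The share reaches 6.09% in bins at 85% or more and 4.51% in windows with CpGs less than 25 bases apart.

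Some chosen windows lay in weakly methylated regions, with a lower level at single-list cytosines than elsewhere. In bins below 70%, 190 windows were near-fully methylated, and their single-list cytosines had 81.8% (80.6 to 83.0) in the low-altitude and 84.2% (83.0 to 85.4) in the high-altitude pig. Other windows of these bins had 66.1% and 67.2% at such cytosines. In bins at 85% or more the chosen windows had 86.5% and 87.5% and the other windows 82.8% and 83.7%. The chosen windows were thus higher than the other windows in both kinds of region. Between the regions, those in weakly methylated bins were lower beyond the intervals in each pig.

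Along the genome the chosen windows were sparse and spread over all autosomes. The median distance to the next one was 150 kb and the largest gap 12.1 Mb. Of 23789 bins of 100 kb with a tested window, 20151 held none, 2651 held 1 and 703 held 2. The bins with most, at 8 each, were on chromosome 1 from 188100001 to 188200000, with 8 of 29 tested windows and 87.8% in the low-altitude and 85.4% in the high-altitude pig outside tested windows, and on chromosome 18 from 18600001 to 18700000, with 8 of 41 and 86.5% and 87.8%. Bins with 7 were on chromosome 16 from 23400001 to 23500000 (7 of 31) and on chromosome 8 from 146900001 to 147000000 (7 of 84), where the run of 3 windows lies. All 4 bins were picked by these counts. Among autosomes the share ran from 0.966% on chromosome 9 and 0.994% on chromosome 10 to 1.44% on chromosome 2 and 1.48% on chromosome 12. Over the 18 autosomes it had a correlation of 0.0915 (Spearman −0.0568) with the level outside tested windows. That level ran only from 68.9% on chromosome 10 to 72.5% on chromosome 12, a far narrower range than among 100 kb bins. The correlation therefore says little about the relation seen among the bins. On the X chromosome, of which female cells inactivate a copy, 34 of 24316 tested windows (0.140%) met the same limits. The part of inactivation in this share was not tested.

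Toward the chromosome ends no steady trend was seen. Within 1 Mb of the outermost listed cytosine 1.28% of tested windows were chosen, and between 1 and 2 Mb 1.44%. The share was lowest between 2 and 5 Mb, at 0.827% (0.720 to 0.9498), and was 1.31% (1.26 to 1.37) beyond 40 Mb. From the chosen windows, the nearest CpG below 30% in both pigs lay at a median distance of 16.6 kb, against 13.7 kb for windows at 85 to 92%, 8.51 kb for windows at 70 to 85% and 8.36 kb for all tested autosomal windows. Such a CpG lay inside 0 of 5023 chosen windows, 38 of 34664 at 85 to 92% and 3416 of 121426 at 70 to 85%. Over all tested autosomal windows it lay inside 37378 of 423427. A near-full level leaves little room for such a CpG, so the choice itself partly sets the order of these distances. CpGs without any methylated call are not listed, so unmethylated islands do not enter these distances.

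The chosen windows were less often rich in listed CpGs, and their CpGs were more closely set. The median was 6 CpGs in both chosen and other windows, while 6.75% of the chosen and 11.9% of the other windows held 10 or more. The share of near-full windows was 1.46% among windows with 5 CpGs, 0.7003% with 10 to 14 and 0.277% with 20 or more (4 of 1445 windows). It was 1.97% among windows with 25 to 49 reads in the library with fewer and 0.465% at 150 or more. Depth and CpG number thus move with the choice, and their part in it was not tested. Neighbouring listed CpGs were a median of 39 bases apart in the chosen windows and 56 in other windows, and 21.7% against 13.7% of the distances were 10 bases or less. When the mean distance in a window was below 25 bases, 396 of 8775 windows (4.51%, interval 4.10 to 4.97) were chosen, against 1.69% at 25 to 50 bases and 1.03 to 1.22% at each wider class. Close CpGs share molecules, which widens the spread of a window's level, and this was not tested as a part of the difference. Within bins at 80% or more the share was 5.08% at distances below 50 bases, 3.36% at 50 to 100 and 3.33% above. Within bins below 70% it was 0.711%, 0.113% and 0.105%. Both features thus went with a higher share within classes of the other.

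The distances between close CpGs recurred from window to window. Among runs of 3 successive distances, read in either direction, 3, 5 and 12 bases was the commonest, in 147 chosen windows (2.93%) and 4355 of the 418404 other windows (1.04%). Next came 5, 12 and 6 bases, in 107 (2.13%) and 3560 (0.851%), then 6, 21 and 6 bases, in 38 (0.757%) and 1185 (0.283%), and 12, 6 and 21 bases, in 34 (0.677%) and 1131 (0.270%). These 4 runs overlap and can be joined to a chain of 3, 5, 12, 6, 21 and 6 bases. Windows that hold the whole chain were not counted. The deepest complete window, on chromosome 1, ended with the run of 3, 5 and 12 bases, as did the complete window on chromosome 14. A run of 5, 3 and 9 bases was in 33 chosen and 507 other windows, so that 6.11% of the windows that hold it (4.38 to 8.46) were chosen. The 6 commonest runs of the chosen windows were found in 229 of them (4.56%) and in 1.79% of other windows. They were picked from the chosen windows, which raises their share there.

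Windows that hold the run of 3, 5 and 12 bases were highly methylated as a whole. Their mean level was 81.9% in the low-altitude and 82.5% in the high-altitude pig over 4502 windows, against 74.4% and 75.3% in the 418925 without it. Of windows that hold the run, 3.27% (2.78 to 3.83) were near-fully methylated, against 1.16% of those without it. Set apart by spacing, it was 6.10% against 4.37% below 25 bases, 3.57% against 1.65% at 25 to 50 bases, 2.17% against 1.10% at 50 to 100 bases and 3.22% against 1.03% above. At single-list cytosines the chosen windows with this run had 84.3% (436 cytosines) in the low-altitude and 86.7% (457) in the high-altitude pig, and other windows with it 79.5% (11619) and 80.5% (11587). Chosen windows with the run thus did not exceed all chosen windows (85.03%) in the low-altitude pig. In the high-altitude pig they were slightly above all chosen windows (86.1%). Among windows that were not chosen, those with the run were above the 72.8% and 73.7% of all such windows. The run was picked from the chosen windows and its CpGs share molecules with their neighbours.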

How the data were processed

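Per the file headers, the deposited files give, for each listed cytosine, the counts of methylated and unmethylated reads, the methylation level as a fraction, and raw and corrected p-values. The submitters' processing notes name Bismark 0.12.5. For genome build, read filters and duplicate removal, the steps were not given in the sources used here. From the values, each listed cytosine lies in a CpG, with 5 or more reads, 1 or more methylated read and a corrected p-value of at most 0.0498. Levels were computed from the deposited counts as methylated over all reads, without correction for non-conversion, and intervals are 95% Wilson intervals of reads or windows, which cover counting error only, since reads may be copies of a molecule and neighbouring CpGs share molecules.

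Cytosines in both lists were joined over strands and placed in fixed 1 kb windows. Two-sided Fisher's exact tests were run over all windows and all CpGs, with numpy 2.4.6, pandas 2.3.3 and numba 0.67.0, after a check on simulated reads. With 1 pig per group there is no test between altitudes. Differences are low altitude minus high altitude. The windows, lists and comparisons were chosen with earlier results of these data known. Named are the 4 complete windows with most reads, the 4 with most CpGs, the 4 longest runs, the 4 with the lowest neighbour, those at the border and the CpGs of largest difference, leaving out 2 windows over 3 times the median depth. Runs of distances and dense bins were chosen after seeing the data.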

Additional observations from a re-analysis of the deposited data

How the results depend on the processing

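Each choice was changed alone. At 90% instead of 92% in both pigs 13621 windows were chosen, with a mean difference (low minus high) of −0.120 points, 84.7% and 85.7% at single-list cytosines in the low- and the high-altitude pig, 11.3% of neighbours chosen, and 86.8% and 87.8% when read in the pig that did not choose. At 95% these were 587 windows, 85.4% and 87.5%, no neighbour (0%), adjacent windows of 82.7% and 83.4%, and 88.0% and 88.8%. With 10 reads per CpG they were 990 windows, 81.3% and 83.8%, 1.79%, 84.4% and 84.3%, and 88.3% and 89.0%, and with 10 CpGs per window 339, 85.9% and 87.8%, 2.78%, 83.5% and 83.2%, and 88.4% and 88.6%. The limit of 10 reads was also asked of each single-list cytosine. The 81.3% and 83.8% thus belong to another set of cytosines and do not show the effect of the window limit alone. Windows of 500 bases gave 86.4% and 87.1%, 4.90% and 83.8% and 84.5%, and windows of 2 kb 3178 windows, 84.6% and 85.3%, 2.92% and 82.9% and 83.6%. Shifted by 500 bases they gave 85.5% in the low-altitude pig, 4.82% and 83.5% and 84.1%. Means of CpG levels gave adjacent windows of 83.4% and 84.0%. Leaving out CpGs over 40 reads, and single-list cytosines over that depth, moved none of these 9 values. Chosen on a part of the reads, windows numbered 2947 (plus strand), 2946 (minus), 1229 (odd order) and 889 (even order), with differences at the reads not used of −0.718, −0.662, −0.159 and −0.0941 points. Windows called in the series numbered 1055 with 10 reads per CpG and 894 at 30 points, and CpGs called 4496 with 5 reads.

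No paired analysis was possible because each altitude has 1 pig, and no replicate could be left out. Depth limits the choice, since at a median of 61 and 62 reads in the low- and the high-altitude pig a window's level has an interval of several points. The number of chosen windows moved with the level, with 10 reads per CpG, with 10 CpGs and with 2 kb windows, while the levels at single-list cytosines stayed between 81.3 and 87.8%. The lowest of these levels had 10 reads asked of the single-list cytosines too. Unlisted CpGs without a methylated call are not seen in any setting, and reads per CpG may not be independent.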
